A study of Mus musculus with 11 samples.

Results

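The autophagy machinery was described here through 39 genes that build the autophagosome, choose its cargo or drive its genes. They were chosen by gene name, and all 39 were found among the 54532 genes of the pancreas count table and the 46078 of the adipose table. Both tables share 45260 genes. The members were split by role into 5 initiation, 6 nucleation, 6 membrane supply, 11 lipidation, 5 Atg8 family and 4 cargo receptor genes and 2 transcription factors.

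The study profiled obesity-related alcohol-induced acute pancreatitis (OA-AP) in mice by RNA sequencing. Of 11 libraries, 2 came from the pancreas of Control mice, 3 from the pancreas of OA-AP mice, 3 from the epididymal fat of Control mice and 3 from that of OA-AP mice. All mice were labelled wild type and 16 weeks old, and were male C57BL/6J by the study's methods. Control mice ate chow for 12 weeks before saline. OA-AP mice were fed high fat over the same 12 weeks before ethanol at 2 g/kg. The agent was given in 2 intraperitoneal injections 1 h apart, and tissue was taken 12 h after the first. Diet, ethanol and disease differed together between the groups and cannot be told apart, and no mouse given the herbal formula CQCQD was among the samples analysed. The labels do not say whether a pancreas and an adipose library came from one mouse. Total counts ran from 14188832 to 17238919 in the pancreas and from 20825177 to 27928097 in adipose tissue.

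Autophagy wraps cytoplasm, organelles or aggregates in a double membrane and delivers them to lysosomes. The ULK kinase complex starts the process, a lipid kinase complex marks the membrane with a phosphoinositide, lipid transfer proteins and scramblases enlarge it, and a ubiquitin-like system attaches LC3 and GABARAP proteins to it, which cargo receptors bind. Acinar cells of the pancreas depend on it for organelle turnover, and VMP1, a membrane protein of the endoplasmic reticulum, was first described as a gene induced in pancreatitis. RNA levels do not measure autophagic flux.

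The labelled tissues were checked against marker genes. Acinar markers, 23 genes, made up 64.4% and 66.2% of all counts in Control pancreas libraries and 51.7%, 53.6% and 52.6% in OA-AP ones, and Ctrb1 was the most abundant of them in all 5 libraries. The 10 adipocyte markers took from 3.52% to 4.83% of the counts in the 6 adipose libraries, led by Fabp4. The adipose library of Control replicate 2 stood apart, because acinar markers took 0.807% of its counts and at most 0.00196% of those of any other adipose library. All 23 acinar markers had a count in it, while Amy2a5 and Amy2b were at 0 in the other 5. The counts of called members and markers in adipose tissue are therefore given with and without it.

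Other cell markers moved with the groups. edgeR called 16.2% of all tested genes higher and 13.5% lower in the pancreas, and 12.1% and 13.0% in fat. Of the 23 acinar markers, 16 fell in the pancreas. Neutrophil markers summed to 1.97 and 2.89 CPM (counts per sequenced library, scaled to a common size) in the Control pancreas and to 15.1, 4.63 and 108 CPM in the OA-AP pancreas, with S100a8 or S100a9 the most abundant in the latter. OA-AP replicate 3 was thus far above the other pancreas libraries. edgeR called 0 of the 8 neutrophil markers tested in the pancreas, with 1 at an unadjusted p under 0.05, and DESeq2 called 6. All 10 averaged at most 0.835 CPM in the Control pancreas. Those tested there may have been tested only because of their level in the OA-AP libraries. In the Control pancreas Ly6g and Retnlg were at 0 in both libraries. In adipose tissue the neutrophil markers summed to 17.6, 34.5 and 36.2 CPM in Control mice and to 194, 188 and 211 CPM in OA-AP mice, and 6 of 7 tested rose. Of these, Cxcr2 and Mmp8 averaged 0.33 and 0.26 CPM in Control and 13.3 and 26.6 CPM in OA-AP fat. They may have been tested only because of their level in the OA-AP libraries. Macrophage markers summed to 884, 1050.0 and 932 CPM in Control fat and to 1360.0, 1271 and 1693 CPM in OA-AP fat, led by Lyz2, with 6 of 10 up and 1 down. In the pancreas 0 of 9 macrophage markers rose and 1 fell by edgeR, with 5 higher at an unadjusted p under 0.05 and 2 called up by DESeq2, and their sums were 66.9 and 33.0 CPM against 64.6, 62.7 and 123 CPM. The duct marker list, which includes the keratins Krt8 and Krt18, summed to 426 and 410.0 CPM in the Control pancreas and to 780, 596 and 1364 CPM in the OA-AP pancreas, with 2 of 8 up and 2 down. In adipose tissue 5 of 8 fibroblast markers and 4 of 7 lymphocyte markers fell, 1 of 5 acinar markers tested fell, 2 of 10 adipocyte markers fell and 1 rose, 1 of 8 duct markers rose and 0 of 6 endothelial markers were called by edgeR (2 at an unadjusted p under 0.05) or by DESeq2. In the pancreas 2 of 7 islet markers rose and 1 of 6 endothelial markers fell. There 0 of 8 fibroblast markers were called by edgeR (1 at an unadjusted p under 0.05) or by DESeq2. Of the 4 adipocyte markers tested in the pancreas 2 rose, Lipe and Pnpla2, and Fabp4 and Pparg were not called. The others, among them Adipoq at 0.050 CPM in Control and 0.018 CPM in OA-AP, were too low there to be tested. The 1 lymphocyte marker tested in the pancreas was not called, and no islet marker passed the filter in fat. Without the adipose library of Control replicate 2, 0 of 3 acinar markers tested fell and 1 rose, 3 of 7 lymphocyte and 4 of 8 fibroblast markers fell, 1 of 10 adipocyte markers fell and 0 rose, and 2 of 8 duct markers rose. The macrophage, neutrophil and endothelial counts in fat stayed the same without it. Of all genes tested without that library, 11.4% rose and 10.8% fell. The part of any of these cells in the autophagy results was not tested. In bulk tissue fewer cells of a type and less RNA per cell cannot be told apart.

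Members were compared in each tissue with edgeR's quasi-likelihood test, and a gene was called when its Benjamini-Hochberg adjusted p over all tested genes was under 0.05 and its fold change was at least 1.5. CPM values were scaled with TMM factors. All 39 members passed the filter on low counts in both tissues. In the pancreas 15 of 39 members (38.5%) rose, where 16.2% of the 12884 genes tested rose. The test called 2 members (5.13%) lower, where 13.5% of all tested genes fell. The median log2 fold change was 0.39 over the members and 0.04 over all tested genes. In 23 members every OA-AP library lay above every Control library, and this held for 32.9% of all tested genes. In 7 members every OA-AP library lay below, against 29.4% of all tested genes. The members' summed level was 930.2 and 978.5 CPM in the Control pancreas and 1812, 1725 and 2321 CPM in the OA-AP pancreas.

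The scaling bears on these counts. Library totals alone, in place of TMM factors, moved the median of all tested genes in the pancreas by 0.71 on the log2 scale, and 29 members were then called higher and 0 lower. Under that scaling 45.4% of all tested genes were called higher and 3.93% lower. The members' summed level was then 736.6 and 682.4 CPM in the Control pancreas and 2386, 2125 and 2575 CPM in the OA-AP pancreas. Leaving out 1 of the 2 Control libraries also mattered, since 9 members were called higher and 0 lower without Control replicate 1, where 6.59% of all tested genes rose and 5.79% fell, and 10 and 0 without Control replicate 2, where 6.07% rose and 4.83% fell.

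**Figure D1:**
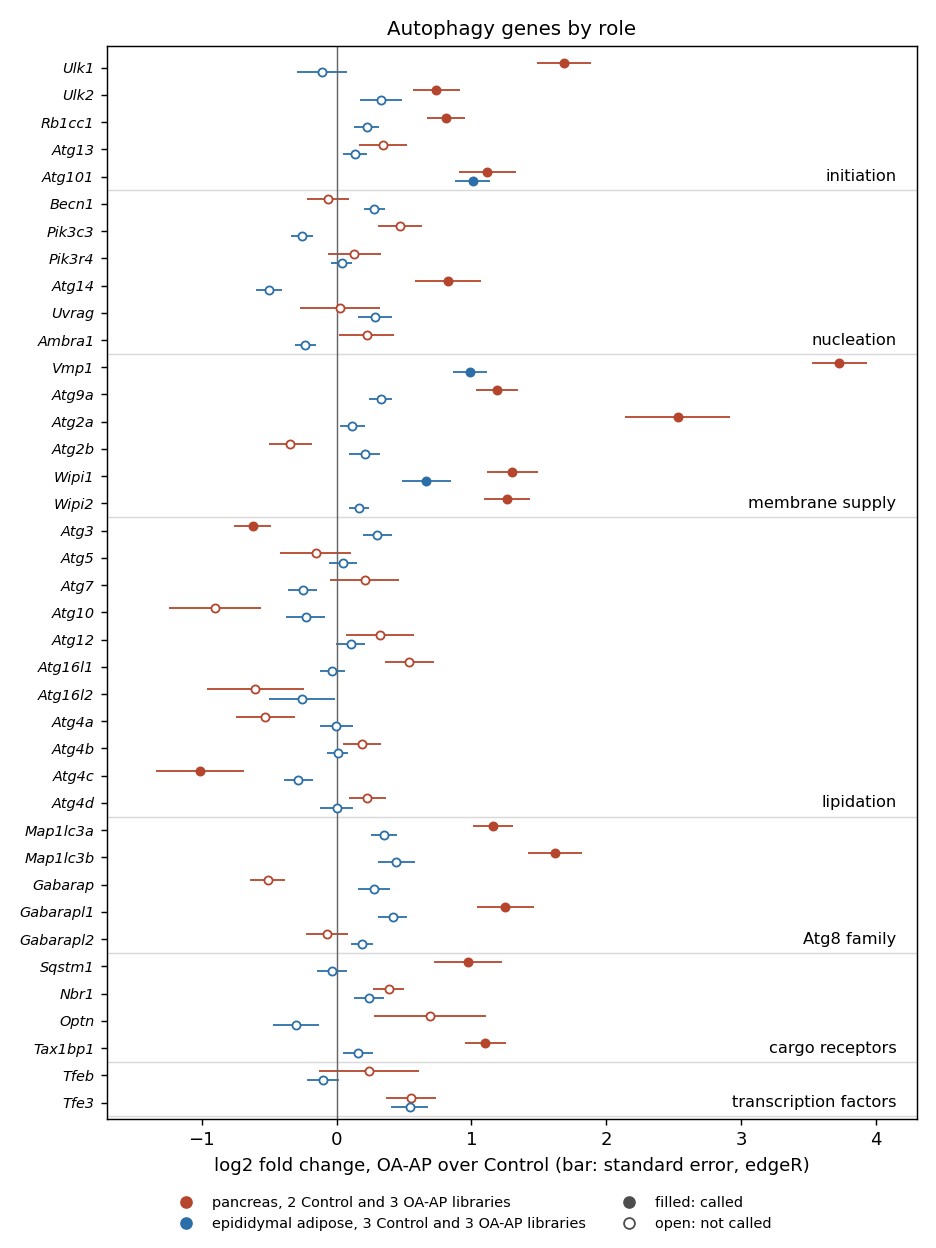
Log2 fold change of each of the 39 members in OA-AP against Control mice, by role, in the pancreas and in epididymal adipose tissue, with the edgeR standard error as a bar. Filled points were called (adjusted p under 0.05 and fold change of at least 1.5). In the pancreas 15 members were called higher and 2 lower, and in adipose tissue 3 were called higher.

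Of the 5 initiation genes, 4 rose in the pancreas, where 16.2% of all tested genes did. With library totals alone all 5 were called higher, where 45.4% of all tested genes were. Ulk1 (ENSMUSG00000029512, chromosome 5 of GRCm38, 110784488 to 110810097), the kinase that starts autophagosome formation, was at 26.1 and 33.0 CPM in Control and at 82.2, 87.4 and 115.9 CPM in OA-AP pancreas. The groups were well apart, and replicate 3 was the highest. The log2 fold change was 1.69 (standard error, SE, 0.20; adjusted p = 0.00077 by edgeR). Rb1cc1, which encodes the scaffold FIP200 of the same complex, was at 16.1 and 17.0 CPM in Control and at 28.2, 27.3 and 31.2 CPM in OA-AP pancreas. All 3 OA-AP libraries were above both Control libraries, with a log2 fold change of 0.81 (SE 0.14, adjusted p = 0.00395 by edgeR). The adjusted p was 0.0539 without Control replicate 1. Ulk2, the second ULK kinase, rose by 0.74 and Atg101, a partner of Atg13 in the complex, by 1.12 on the log2 scale. Ulk2 was not called without Control replicate 2 (adjusted p = 0.122) or OA-AP replicate 1 (0.061), nor was Atg101 without Control replicate 1 (0.06002) or 2 (0.0505). Atg13 was not called, at 31.8 and 36.9 against 37.9, 40.2 and 52.8 CPM.

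In adipose tissue Atg101 was the only 1 of the 5 initiation genes called, where 12.1% of all tested genes rose and 13.0% fell. It was at 13.9, 12.1 and 12.2 CPM in Control and at 23.1, 24.3 and 29.4 CPM in OA-AP fat. The groups did not overlap, and the log2 fold change was 1.01 (SE 0.13, adjusted p = 0.00181 by edgeR), close to the 1.12 of the pancreas. The test of the difference between the tissues gave 0.12 (adjusted p = 0.772 by edgeR). With library totals alone this difference was called as more positive in the pancreas, as it was for 36.8% of all tested genes. Ulk1 was at 64.3, 68.7 and 81.6 CPM in Control and at 84.6, 52.1 and 62.3 CPM in OA-AP fat, and these groups overlapped.

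Of the 6 nucleation genes, subunits and partners of the class III lipid kinase, 1 was called higher in the pancreas, where 16.2% of all tested genes were. With library totals alone 5 were called higher (Atg14, Ambra1, Becn1, Pik3c3 and Pik3r4), where 45.4% of all tested genes were. Atg14, the subunit that directs the kinase to autophagosome formation, was at 4.21 and 3.39 CPM in Control and at 5.88, 6.58 and 7.79 CPM in OA-AP pancreas. Here the groups did not overlap, and the log2 fold change was 0.82 (SE 0.24, adjusted p = 0.0332 by edgeR). This call did not hold with DESeq2 (adjusted p = 0.0692) or without any of 4 libraries, Control replicates 1 (0.0958) and 2 (0.196) and OA-AP replicates 1 (0.0637) and 2 (0.0509). The catalytic subunit Pik3c3 was at 14.7 and 12.9 against 17.22, 21.8 and 18.3 CPM and was not called. Becn1, the regulatory subunit Beclin 1, was at 18.7 and 20.5 CPM in Control and at 17.7, 17.1 and 21.6 CPM in OA-AP pancreas, and the groups overlapped. Pik3r4, Uvrag and Ambra1 also overlapped between the groups in the pancreas.

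In adipose tissue edgeR and DESeq2 each called 0 of the 6 nucleation genes, where edgeR called 12.1% of all tested genes higher and 13.0% lower. At an unadjusted p under 0.05 edgeR gave 4, 1 higher and 3 lower, where 3826 and 3689 of the 15839 tested genes were. Becn1, the most abundant nucleation gene per kilobase, was at 62.3, 59.5 and 57.4 CPM in Control and at 70.4, 74.0 and 73.2 CPM in OA-AP fat. The groups did not overlap, but the log2 fold change of 0.28 (adjusted p = 0.028 by edgeR) was under the fold threshold. Atg14 went the other way than in the pancreas, at 18.5, 18.3 and 19.2 CPM in Control and at 13.1, 12.7 and 13.8 CPM in OA-AP fat. Here too the groups did not overlap, and the log2 fold change of −0.50 (adjusted p = 0.00784 by edgeR) was under the fold threshold, while with library totals alone it was −0.648 and Atg14 was called lower.

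Of the 6 membrane supply genes, 5 rose in the pancreas, where 16.2% of all tested genes did. Vmp1 (ENSMUSG00000018171, chromosome 11, 86583865 to 86683836), set apart here as a pancreatitis gene, was at 21.2 and 27.7 CPM in Control and at 304, 289.7 and 378 CPM in OA-AP pancreas. No other member differed as much, and the lowest OA-AP library was far above the highest Control library. The log2 fold change was 3.73 (SE 0.20, adjusted p = 4.28e-05 by edgeR), and it ranged from 3.55 to 4.44 over the alternatives, all called. In adipose tissue Vmp1 was at 158, 134 and 138 CPM in Control and at 278, 322 and 253 CPM in OA-AP mice. The groups were apart here as well, with a log2 fold change of 0.99 (SE 0.13, adjusted p = 0.00191 by edgeR). Without the adipose library of Control replicate 2 Vmp1 was still called in fat.

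Atg9a, the lipid scramblase of the vesicles that seed the autophagosome, was at 9.95 and 8.87 CPM in Control and at 19.4, 22.4 and 22.7 CPM in OA-AP pancreas. The OA-AP libraries were all above the Control ones and close to each other, with a log2 fold change of 1.19 (SE 0.16, adjusted p = 0.00129 by edgeR). Atg2a, a lipid transfer protein, was at 16.8 and 19.2 CPM in Control and at 78.7, 74.4 and 159 CPM in OA-AP pancreas. Replicate 3 held about as much as the other OA-AP libraries together. Its log2 fold change of 2.53 (SE 0.39, adjusted p = 0.0044 by edgeR) became 2.04 without that library, and the adjusted p was 0.0527 without Control replicate 1. Its paralog Atg2b was not called, at 14.16 and 17.7 CPM in Control and 12.3, 13.0 and 12.2 CPM in OA-AP pancreas. The phosphoinositide binding proteins Wipi1 and Wipi2 rose by 1.30 and 1.26 on the log2 scale. In adipose tissue Wipi1 was at 65.5, 62.8 and 69.6 CPM in Control and at 80.4, 134.5 and 99.3 CPM in OA-AP mice. Control and OA-AP libraries did not overlap but the OA-AP libraries were widely spread. The log2 fold change was 0.67 (SE 0.18, adjusted p = 0.0263 by edgeR). Wipi1 was not called in adipose tissue with library totals alone (adjusted p = 0.07096) or when any of 5 libraries was left out. The adjusted p was 0.082 without Control replicate 1, 0.0816 without Control replicate 2, 0.0712 without Control replicate 3 and 0.0565 without OA-AP replicate 3. Without OA-AP replicate 2 the log2 fold change was 0.45, under the fold threshold.

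Among lipidation genes in the pancreas none was called higher. Of 11 members, edgeR and DESeq2 each called 0 higher and 2 lower, where edgeR called 16.2% of all tested genes higher and 13.5% lower. At an unadjusted p under 0.05 edgeR gave 1 higher and 4 lower, where 3116 and 2659 of the 12884 tested genes were. With library totals alone 5 members were called higher (Atg7, Atg12, Atg16l1, Atg4b and Atg4d) and 0 lower. Under that scaling 45.4% and 3.93% of all tested genes were. Atg3, the enzyme that transfers LC3 to the lipid, was at 22.1 and 20.1 CPM in Control and at 14.17, 13.4 and 13.7 CPM in OA-AP pancreas. The groups did not overlap, with a log2 fold change of −0.62 (SE 0.14, adjusted p = 0.0107 by edgeR), which turned to 0.09 with library totals alone. Atg3 was also not called with no filter on low counts. Atg4c, a protease that trims Atg8 proteins, was at 7.98 and 5.48 CPM in Control and at 3.62, 4.23 and 2.20 CPM in OA-AP pancreas. Here the groups did not overlap, and the log2 fold change was −1.01 (SE 0.33, adjusted p = 0.0454 by edgeR). Neither call held without Control replicate 1 (adjusted p = 0.105 for Atg3 and 0.3195 for Atg4c) or Control replicate 2 (0.0608 and 0.0973), and that of Atg4c did not hold without OA-AP replicate 1 (0.0949) or with library totals alone (0.535). Atg5, whose protein joins Atg12 and Atg16l1 in the complex that guides lipidation, was at 7.55 and 13.8 CPM in Control and at 10.2, 10.1 and 8.26 CPM in OA-AP pancreas, and the groups overlapped. Atg16l1 was at 10.4 and 10.1 against 14.8, 12.6 and 17.21 CPM, without overlap and with an adjusted p of 0.0531 by edgeR, and it was called higher without OA-AP replicate 2 and with no filter on low counts. Atg7, the activating enzyme, and Atg12 overlapped between the groups. The mean of the 11 lipidation genes in the Control pancreas ran from 3.04 to 21.1 CPM.

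In adipose tissue edgeR called 0 of the 11 lipidation genes, where 12.1% of all tested genes rose and 13.0% fell, and DESeq2 called 0. At an unadjusted p under 0.05 edgeR gave 1 higher and 2 lower, where 3826 and 3689 of the 15839 tested genes were. Atg12 was the most abundant per kilobase of the deposited length of 2492 bases, but its GENCODE M21 transcripts hold 7711 words of 50 bases, and on that length it would rank below Atg3. It was at 50.4, 50.04 and 51.4 CPM in Control and at 48.2, 62.4 and 52.8 CPM in OA-AP fat. These groups overlapped. Atg3 was at 56.1, 51.7 and 57.3 CPM in Control and at 77.3, 61.8 and 64.5 CPM in OA-AP fat. All 3 OA-AP libraries were above the Control ones, but the log2 fold change of 0.30 had an adjusted p of 0.0628 by edgeR and was not called.

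Of the 5 Atg8 genes, 3 rose in the pancreas, where 16.2% of all tested genes did. With library totals alone 4 were called higher (Gabarapl2 added), where 45.4% of all tested genes were. Map1lc3b, which encodes LC3B, the usual marker protein of autophagosomes, was at 97.7 and 108 CPM in Control and at 305, 253 and 391 CPM in OA-AP pancreas. The groups were far apart, with a log2 fold change of 1.62 (SE 0.20, adjusted p = 0.000946 by edgeR). Map1lc3a (LC3A) was at 16.3 and 20.4 CPM in Control and at 39.6, 41.4 and 42.2 CPM in OA-AP pancreas. The OA-AP libraries were close together and above both Control libraries, with a log2 fold change of 1.16 (SE 0.15, adjusted p = 0.00113 by edgeR). Gabarapl1 was at 34.8 and 36.7 CPM in Control and at 70.8, 74.2 and 109.9 CPM in OA-AP pancreas. It had a log2 fold change of 1.25 (adjusted p = 0.00364 by edgeR), with replicate 3 the highest. Without Control replicate 1 or 2 its adjusted p was 0.0547 or 0.0522. Gabarap was at 127 and 129 CPM in Control and at 84.2, 86.2 and 99.2 CPM in OA-AP pancreas. The groups did not overlap, and its log2 fold change of −0.51 (adjusted p = 0.0189 by edgeR) was under the fold threshold and turned to 0.20 with library totals alone. It was called lower without OA-AP replicate 3 and with the replicate block. Gabarapl2 was at 18.6 and 18.9 against 16.8, 20.4 and 16.4 CPM, which overlapped.

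In adipose tissue all 5 Atg8 genes had every OA-AP library above every Control library, as 26.4% of all tested genes had. Yet edgeR and DESeq2 each called 0 at the fold threshold, where edgeR called 12.1% of all tested genes higher. At an unadjusted p under 0.05 edgeR gave 3 higher, where 3826 of the 15839 tested genes were. Map1lc3b was at 221, 267 and 293 CPM in Control and at 388, 336 and 336 CPM in OA-AP fat. The log2 fold change was 0.44 (adjusted p = 0.0395 by edgeR). Map1lc3a was at 108, 97.2 and 93.6 CPM in Control and at 133, 122 and 127 CPM in OA-AP fat. The groups were apart with a log2 fold change of 0.35 (adjusted p = 0.0237 by edgeR), under the fold threshold. Gabarap, the most abundant per kilobase, was at 271, 285 and 286 CPM in Control and at 359.5, 295 and 364 CPM in OA-AP fat. It had a log2 fold change of 0.28 (adjusted p = 0.106 by edgeR).

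**Figure D2:**
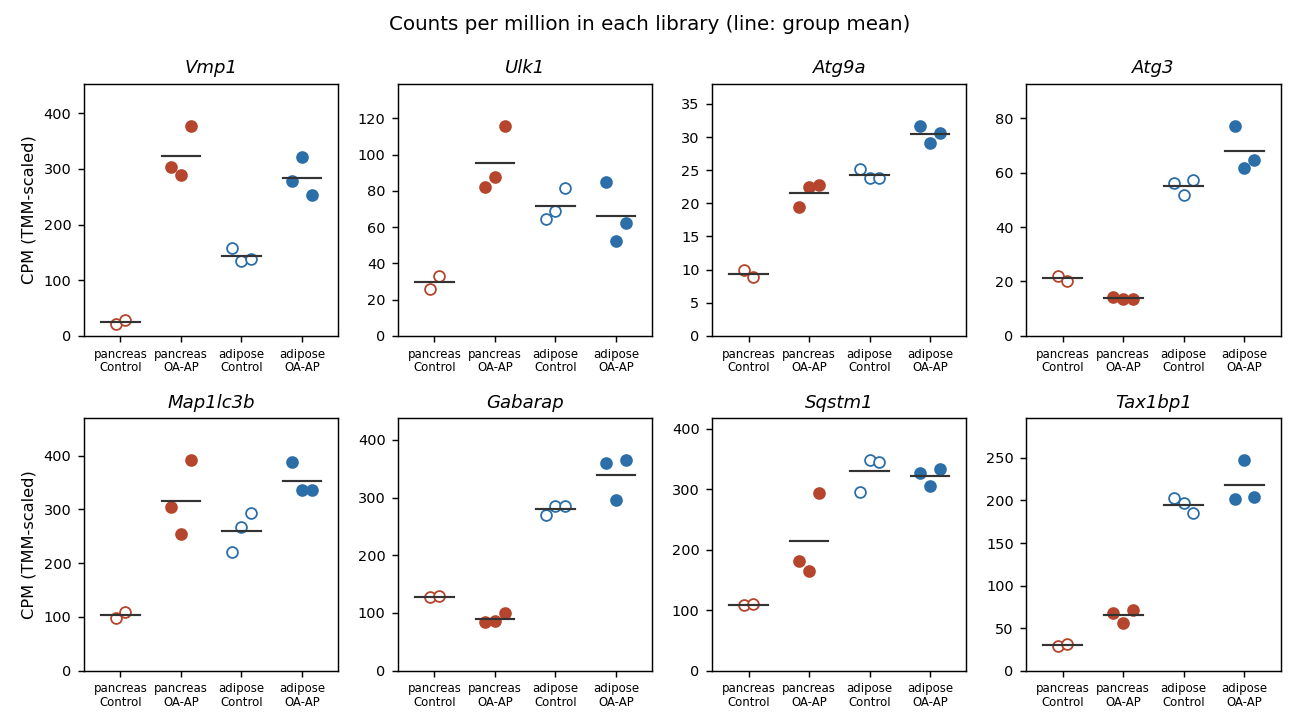
TMM-scaled CPM of 8 members in each of the 11 libraries, open points for Control and filled points for OA-AP mice, with a line at the group mean. Vmp1, Ulk1, Atg9a, Map1lc3b, Sqstm1 and Tax1bp1 were called higher in OA-AP pancreas and Atg3 lower. For Gabarap all 3 OA-AP pancreas libraries, up to 99.2 CPM, lay below both Control libraries, and with library totals alone Atg3 and Gabarap had log2 fold changes of 0.09 and 0.20.

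Of the 4 cargo receptors, 2 rose in the pancreas, where 16.2% of all tested genes did. With library totals alone all 4 were called higher, where 45.4% of all tested genes were. Sqstm1, which encodes p62, a receptor for ubiquitinated cargo that is itself degraded by autophagy, was at 108 and 109.9 CPM in Control and at 182, 165.5 and 294 CPM in OA-AP pancreas. Control and OA-AP libraries did not overlap, and replicate 3 stood well above the other OA-AP libraries. The log2 fold change was 0.98 (SE 0.25, adjusted p = 0.0217 by edgeR). It was 0.63 without OA-AP replicate 3 (adjusted p = 0.000318), and the adjusted p was 0.142 without either Control library. Tax1bp1, a receptor of the same kind, was at 29.3 and 31.6 CPM in Control and at 67.8, 56.5 and 71.8 CPM in OA-AP pancreas. The 3 OA-AP libraries were all above the Control ones, with a log2 fold change of 1.10 (SE 0.15, adjusted p = 0.00145 by edgeR). Nbr1 was at 113 and 112 against 144, 149 and 148 CPM, without overlap but under the fold threshold. Optn, the receptor optineurin, was near the lower limit of these libraries in the pancreas, at 0.944 and 1.60 against 2.00, 1.66 and 2.46 CPM. In adipose tissue edgeR called 0 of the 4, where 12.1% of all tested genes rose and 13.0% fell, and DESeq2 called 0. At an unadjusted p under 0.05 edgeR gave 0, where 3826 of the 15839 tested genes were higher and 3689 lower. Sqstm1 was at 296, 348 and 345.5 CPM in Control and at 326, 306 and 333 CPM in OA-AP fat. These groups overlapped, and the log2 fold change was −0.04 (SE 0.11, adjusted p = 0.822 by edgeR), which turned to 0.01 without Control replicate 2 or 3 and to 0.005 without OA-AP replicate 2.

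The transcription factors Tfeb and Tfe3, which drive autophagy and lysosome genes, were not called in either tissue. Over all tested genes edgeR called 16.2% higher in the pancreas and 12.1% in fat. At an unadjusted p under 0.05, edgeR gave 1 of these 2 factors higher in each tissue, and DESeq2 called 0 in each. Tfe3 was at 6.69 and 8.68 CPM in Control and at 11.8, 10.9 and 10.9 CPM in OA-AP pancreas. In fat it was at 54.4, 57.6 and 55.6 CPM in Control and at 94.1, 65.2 and 84.9 CPM in OA-AP mice. In both tissues the OA-AP libraries were above the Control ones, with log2 fold changes of 0.55 (adjusted p = 0.0526) and 0.54 (adjusted p = 0.0199) by edgeR, the latter under the fold threshold. Tfe3 was called higher in the pancreas with library totals alone or no filter on low counts, and in fat without OA-AP replicate 2. Tfeb overlapped between the groups in both tissues.

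In adipose tissue as a whole, 3 of 39 members (7.69%) rose and 0 fell, where 12.1% of the 15839 genes tested rose and 13.0% fell. These 3, Atg101, Vmp1 and Wipi1, all rose in the pancreas as well. DESeq2 also called 3 higher and 0 lower, where it called 7.67% and 7.85% of its genes (2097 and 2146). It was run without the filter on low counts, so these shares are over more genes than those of edgeR and are not comparable with them. At an unadjusted p under 0.05 edgeR gave 11 higher and 5 lower, where 3826 and 3689 of the 15839 tested genes were. Without the library of Control replicate 2, 2 members were called higher and 0 lower, where 11.4% and 10.8% of all tested genes were. Wipi1 was the only call lost. In 16 members every OA-AP library lay above every Control library, against 26.4% of all tested genes, and in 4 every one lay below, against 26.0%. The median log2 fold change was 0.14 over the members and −0.015 over all tested genes, and library totals alone moved the latter by −0.15. The summed member level was 2894, 3017 and 3061 CPM in Control and 3612, 3549 and 3529 CPM in OA-AP fat.

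Whether the changes differed between the tissues was tested with the tissue by condition term over all 11 libraries. It was called at an adjusted p under 0.05 for 13 of 39 members (33.3%) with a more positive change in the pancreas, where 10.5% of the 17046 genes tested were called so, and for 2 members (5.13%) with a more negative one, where 10.8% were. Library totals alone gave 30 and 0, with 36.8% and 2.30% of all tested genes, and shifted the median of all genes by 0.82. DESeq2, run without the filter on low counts, gave 14 and 3, with 7.29% and 8.45% of that larger set of genes. With same-numbered pancreas and adipose libraries of a group taken as a block, 9 and 2 members were called, where 6.41% and 6.24% of all tested genes were, and Gabarapl1, Pik3c3, Rb1cc1 and Sqstm1 were lost. Vmp1 had the largest difference, 2.75 on the log2 scale (SE 0.24, adjusted p = 4.61e-05 by edgeR). Of the 15 members that rose in the pancreas 12 were among the 13, and Pik3c3 was the other. Atg3 and Gabarap were those with a more negative change in the pancreas. Ulk2, Atg101 and Wipi1, which rose in the pancreas, were not called for a difference. With library totals alone each of them was called with a more positive change in the pancreas. Ulk2 and Wipi1 were also called so without adipose OA-AP replicate 2.

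Within a library, levels of different members were compared as CPM per kilobase of the deposited gene length. Gabarap ranked first in both tissues, at 69.3 CPM per kilobase in Control pancreas and 152 in Control fat. In Control pancreas Sqstm1 came next at 32.4, then Gabarapl1 at 17.8, Nbr1 at 16.4, Map1lc3a at 15.6 and Map1lc3b at 13.7 CPM per kilobase. The Atg8 genes and the receptors Sqstm1 and Nbr1 thus led the list in Control pancreas. The receptor Tax1bp1 ranked 16 there, and the receptor Optn was the lowest member at 0.338 CPM per kilobase. In Control fat Gabarapl1 at 112, Sqstm1 at 98.3, Map1lc3a at 84.4 and Vmp1 at 37.1 CPM per kilobase followed. Vmp1 ranked 10 in Control pancreas at 6.33, and it reached 83.9 CPM per kilobase in OA-AP pancreas, where Gabarap was at 48.7. Whether neighbours in this order differ was not tested.

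Other genes of the pathway were read from 4 lists, whose counts stand beside the shares of all tested genes, 16.2% up and 13.5% down in the pancreas and 12.1% up and 13.0% down in fat. Of 15 genes for fusion with lysosomes, 3 rose and 1 fell in the pancreas, and 1 rose and 0 fell in fat. The 1 that fell was Vps41, at −0.63 on the log2 scale but at 0.081 under library totals, which was not called in 6 of 14 alternatives, and Vps33a, among the 3, was not called in 5. Plekhm1, an adaptor between Rab7 and the tethering complex, was at 5.58 and 6.88 against 11.6, 12.9 and 12.0 CPM in the pancreas (log2 fold change 0.97, adjusted p = 0.0057 by edgeR, and 0.0654 without Control replicate 1). Snap29, a SNARE of the autophagosome, was at 6.95 and 10.5 against 14.9, 15.2 and 17.0 CPM in the pancreas, and at 46.5, 51.7 and 45.7 against 71.9, 75.2 and 84.1 CPM in fat. It rose in both tissues without overlap of the groups, by 0.85 and 0.68 on the log2 scale. The pancreas call was lost without Control replicate 1 (adjusted p = 0.12), and in fat the value was 0.53 with library totals alone, under the fold threshold.

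The list of mTORC1, AMPK and their regulators, which control initiation, held 27 genes, of which 4 rose and 4 fell in the pancreas. Flcn, which encodes folliculin, was at 45.1 and 42.7 CPM in Control and at 8.87, 9.95 and 5.81 CPM in OA-AP pancreas. The groups did not overlap, and its log2 fold change was −2.42 (adjusted p = 0.000264 by edgeR). Its partner Fnip2 was at 29.95 and 42.7 CPM in Control and at 10.1, 11.6 and 9.78 CPM in OA-AP pancreas, with a log2 fold change of −1.79 (adjusted p = 0.000428 by edgeR). Folliculin and its partners act on the Rag GTPases that tie mTORC1 and TFE factors to the lysosome. The second partner Fnip1 and the AMPK subunit Prkaa2 also fell, while Sesn1, Ddit4, Mtor and Prkab2 rose. Of these, Mtor and Prkaa2 were not called without Control replicate 1 (adjusted p = 0.0604 and 0.105), Fnip1 and Prkaa2 without Control replicate 2 (0.0608 and 0.143), and Prkab2 without Control replicate 1 (0.0757), Control replicate 2 (0.165) or OA-AP replicate 1 (0.054). With library totals alone Prkaa2 (log2 fold change −0.205, adjusted p = 0.582) and Fnip1 (−0.44, 0.155) were not called either. The mTORC1 inhibitor Ddit4, chosen for mention after its values were seen, was at 33.6 and 31.7 CPM in Control and at 384, 268 and 586 CPM in OA-AP pancreas. In fat 1 of 27 rose and 3 fell, and without Control replicate 2 Sesn3 was no longer called and Prkaa2 was called lower instead. Deptor, a subunit that restrains mTOR, was at 94.8, 123 and 85.1 CPM in Control and at 282, 361 and 386 CPM in OA-AP fat (log2 fold change 1.77, adjusted p = 0.000894 by edgeR). The AMPK subunit Prkaa1 was at 104, 104 and 117 CPM against 63.0, 59.8 and 65.7 CPM (log2 fold change −0.78, adjusted p = 0.00139 by edgeR). Neither gene overlapped between the groups, and Flcn also fell in fat, by 0.80 on the log2 scale.

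Of 19 receptors for mitochondria, endoplasmic reticulum and other cargo, 17 were tested in the pancreas, where 6 rose and 1 fell. The 1 that fell was Fundc1, at −0.67 on the log2 scale but at 0.041 under library totals, and Wdfy3, among the 6, was not called in 5 of 14 alternatives. Bnip3, a mitophagy receptor, was at 14.9 and 10.6 CPM in Control and at 45.0, 42.3 and 45.7 CPM in OA-AP pancreas (log2 fold change 1.80, adjusted p = 0.000373 by edgeR). Retreg3, a receptor of the endoplasmic reticulum, was at 16.7 and 18.1 against 41.6, 41.4 and 47.7 CPM (log2 fold change 1.33, adjusted p = 0.000539 by edgeR). The OA-AP libraries of both genes were close together and above both Control libraries. In fat 18 were tested, and 0 rose by edgeR (1 at an unadjusted p under 0.05) or DESeq2 and 2 fell. Calcoco1 was at 117, 104 and 114 CPM in Control and at 76.9, 76.2 and 67.0 CPM in OA-AP fat (log2 fold change −0.61, adjusted p = 0.00383 by edgeR). It fell without overlap, but was under the fold threshold without Control replicate 1 (−0.56), Control replicate 3 (−0.58) or OA-AP replicate 3 (−0.54). In the pancreas it rose by 0.77 on the log2 scale, with an adjusted p of 0.0675 without Control replicate 2.

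Among 23 other regulators, of which Epg5 is also in the fusion list, 20 were tested in the pancreas, and 5 rose and 1 fell. Ei24, a membrane protein of the endoplasmic reticulum, was at 27.1 and 28.1 CPM in Control and at 83.6, 71.1 and 82.8 CPM in OA-AP pancreas (log2 fold change 1.52, adjusted p = 0.000291 by edgeR). Foxo3, a transcription factor of autophagy genes, was at 19.9 and 21.2 against 68.8, 63.2 and 86.0 CPM (log2 fold change 1.82, adjusted p = 0.000323 by edgeR). Both were well apart between the groups. All 23 were tested in fat, where 3 rose and 1 fell. The 1 that fell, Rubcnl, was not called without Control replicate 2, and Wdr45 was called lower instead. Trp53inp2, among the 3, overlapped between the groups and was not called in 8 of 15 alternatives. Tfec, of the same family as Tfeb, was at 0.517, 1.48 and 0.579 CPM in Control and at 7.15, 5.77 and 8.94 CPM in OA-AP fat (log2 fold change 3.10, adjusted p = 0.00222 by edgeR). Bcl2, which binds Beclin 1, was at 24.1, 29.3 and 26.0 CPM in Control and at 38.0, 46.2 and 38.0 CPM in OA-AP fat (log2 fold change 0.62, adjusted p = 0.00727 by edgeR), while in the pancreas it fell, with a log2 fold change of −1.46. In fat it was under the fold threshold without Control replicate 1 (0.57) or OA-AP replicate 2 (0.53), and in the pancreas its adjusted p was 0.0868 without Control replicate 1 and 0.0834 without Control replicate 2. With library totals alone its log2 fold change was 0.474 in fat, under the fold threshold, and −0.76 in the pancreas (adjusted p = 0.121).

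Some member counts are uncertain because exons overlap those of other genes in GENCODE M21 and the strand setting of the counting is not given in the sources used here. The share of a member's exon bases that lies under an exon on the opposite strand was 43.9% for Becn1 (Cntd1), 28.3% for Gabarapl1, 19.3% for Atg4d, 17.6% for Uvrag and 17.3% for Sqstm1 (Mrnip). On the same strand, 31.8% of the exon bases of Atg9a are shared with Gm29253, which had at most 1 count in any library. Vmp1 holds the microRNA gene Mir21a in its exons, 92 bases on the same strand, and Mir21a had 0 counts in all 11 libraries. Of the words of 50 bases in a member's transcripts, 51.2% for Atg4a, 12.2% for Gabarapl2 and 5.77% for Map1lc3b also occur in another gene's transcript. Reads from such stretches can be split or lost in counting. The low counts of Gm29253 and Mir21a therefore do not show how much of either was transcribed.

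Promoters were searched for 4 motifs on both strands. The RefSeq promoter table (GRCm38.p6) held 33 of the 39 members, without Atg12, Becn1, Rb1cc1, Atg16l1, Pik3c3 and Map1lc3a. A gene can have several RefSeq starts in that table, and some lie inside the gene as GENCODE M21 annotates it. In the 250 bases before a RefSeq start CACGTG, the letters bound by MiT/TFE factors and other helix-loop-helix proteins, was in 3 of the 33 members (9.09%), Atg3, Atg5 and Atg7, and in 6.86% of the 27025 genes of the table. The longer TCACGTG, which contains it, was in 2 members (6.06%), Atg3 and Atg7, and in 3.58% of all genes. Over the whole 300 bases Atg14 also held CACGTG. Whether these shares differ was not tested. The next 3 lines show the sites of Atg3, Atg5 and Atg7 in capitals with up to 20 bases on either side, from chr16:45158715-45158783, chr10:44268305-44268338 and chr6:114670944-114670989, all on the plus strand.
Atg3: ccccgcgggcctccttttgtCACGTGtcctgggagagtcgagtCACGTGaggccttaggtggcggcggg
Atg5: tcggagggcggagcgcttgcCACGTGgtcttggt
Atg7: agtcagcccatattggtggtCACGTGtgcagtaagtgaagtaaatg
Atg3 held 2 sites, which begin 94 and 71 bases before its RefSeq start, and Atg5 held 1 at 14 bases. Atg7 held 1 at 132 bases before a RefSeq start that lies inside the annotated gene.

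TGACNNNGC, the core letters bound by NRF2 with its small Maf partners, was in 4 of 33 members (12.1%), Vmp1, Ulk2, Tax1bp1 and Atg13, and in 11.5% of all genes. Vmp1 has 3 RefSeq starts in the table and held 1 site before each, at 168, 75 and 156 bases. Only the first of these sites lies before the annotated gene, and the others and that of Tax1bp1 lie inside it. The second of these is shown with the sites of Ulk2 and Tax1bp1, from chr11:86683570-86683618 and chr11:61855093-61855129 on the minus strand and chr6:52713956-52713988 on the plus strand, with the motif in capitals.
Vmp1: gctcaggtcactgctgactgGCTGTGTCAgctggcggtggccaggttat
Ulk2: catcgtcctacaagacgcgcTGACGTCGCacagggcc
Tax1bp1: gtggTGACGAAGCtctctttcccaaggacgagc
The Vmp1 site reads on the reverse strand and the others on the forward strand of the gene. TGATGNAA, the core letters of sites bound by ATF4, was in 0 of 33 members and in 3.91% of all genes, which says only that these letters are not in this window. A match is a description of the sequence, and binding was not measured.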

How the data were processed

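Pancreas and epididymal adipose RNA of mice was sequenced, and the authors deposited raw read counts per gene, 1 library per column. Per their processing notes and methods, reads were trimmed with Trim Galore 0.6.6, checked with fastp 0.20.1, mapped to GRCm38 with STAR and counted with featureCounts 2.0.1. The annotation release and strand setting are not given in the sources used here. Members were matched by gene ID, since the adipose table uses some older symbols. Counts were filtered with filterByExpr, scaled with TMM and tested in each tissue with edgeR 4.0.16 (quasi-likelihood, robust) in R 4.3.3, calling genes whose Benjamini-Hochberg adjusted p was under 0.05 and whose fold was 1.5 or more. The tissue by condition term was tested over all 11 libraries at an adjusted p under 0.05. Standard errors are the log2 fold change over the square root of F. The members, lists and tests were chosen with earlier results of these data known. Given in every sample were Vmp1, Sqstm1, Map1lc3a, Map1lc3b, per role and tissue the 2 called members with the smallest p or the most abundant member per kilobase, and per pathway list and tissue the 2 called genes with the smallest p, with 1 such gene left out of the text. The scale of abundance (per kilobase) was set, and further genes such as Ddit4 were chosen, after values were seen. Marker lists for 9 cell types were used. Alternatives were DESeq2 1.42.0, its size factors, library totals, TMM without acinar genes, other filters and fold thresholds, each library left out and a replicate block. DESeq2 itself was run on all genes with a count, without filterByExpr. The fits were tested on simulated data. A planned protein comparison was not made for want of sequences. Whether the libraries of a group are separate animals is not stated for each, so p-values measure the spread between these samples.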

Additional observations from a re-analysis of the deposited data

Results flagged for a closer look

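The change between Control and OA-AP mice differed between pancreas and adipose tissue for 15 members, by the tissue by condition term of edgeR at an adjusted p under 0.05. The change was more positive in the pancreas for 13 and more negative for 2, where 10.5% and 10.8% of the 17046 genes tested were called so. Values are the log2 change in the pancreas minus that in adipose tissue. Among initiation genes the difference was 1.81 for Ulk1 and 0.60 for Rb1cc1. Among nucleation genes it was 0.74 for Pik3c3 and 1.33 for Atg14, and both had every OA-AP library above the Control libraries in the pancreas and every one below them in fat. Among membrane supply genes it was 2.75 for Vmp1, 0.87 for Atg9a, 2.43 for Atg2a and 1.11 for Wipi2. In the Atg8 family it was 0.82 for Map1lc3a, 1.19 for Map1lc3b, 0.85 for Gabarapl1 and −0.77 for Gabarap, and for the lipidation gene Atg3 it was −0.91. Atg3 and Gabarap lay lower in every OA-AP library in the pancreas and higher in every one in fat, and their differences were −0.07 and 0.07 with library totals alone. Among cargo receptors the difference was 1.02 for Sqstm1 and 0.95 for Tax1bp1. The share of acinar transcripts differed between the pancreas groups, and its part in these differences was not tested. The differences of Rb1cc1, Gabarapl1 and Sqstm1 were not called without pancreas Control replicate 1 (adjusted p = 0.0818, 0.102 and 0.0885) or 2 (0.0617, 0.0873 and 0.0918), and that of Pik3c3 was not called without pancreas Control replicate 2 (0.0653). With same-numbered pancreas and adipose libraries of a group taken as a block, those of Rb1cc1, Pik3c3, Gabarapl1 and Sqstm1 were not called (adjusted p = 0.0951, 0.0629, 0.0906 and 0.0573).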

How the results depend on the processing

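Over the alternatives, the 17 members called in the pancreas kept direction and call in 210 of 238 refits and lost the call in 27, and 1 reversed. The 3 called in fat kept both in 37 of 45 and lost the call in 8. Over all 39 members, the direction reversed in 20 of 546 refits in the pancreas, 28 of 585 in fat and 17 of 585 for the tissue difference. With library totals alone, 29 members were called higher and 0 lower in the pancreas, 1 (Atg14) was called lower in fat, and 30 and 0 were called for the tissue difference. Under that scaling the pancreas log2 fold changes were 0.088 for Atg3, 0.20 for Gabarap, 0.081 for Vps41 and 0.041 for Fundc1, those in fat −0.035 for Atg2a and −0.042 for Atg12, and the tissue difference of Gabarap 0.069. In fat that scaling called 8.62% of all tested genes higher and 18.2% lower. A fold change of 2 left 11 members higher (Atg14, Rb1cc1, Sqstm1 and Ulk2 lost) and 1 lower (Atg3 lost) in the pancreas. In fat it left 1 higher. Of all tested genes it left 10.02% higher and 9.104% lower in the pancreas, and 6.32% and 7.747% in fat. No fold threshold gave 9 members (23.1%) higher and 3 (7.69%) lower in fat, where 19.35% and 17.49% of all tested genes were. The fewer and the added calls both arise by construction. Without a filter on low counts 17 members were called higher (Atg16l1 and Tfe3 added) and 1 lower (Atg3 lost) in the pancreas. In that fit 11.3% and 7.70% of all genes were. With 1 library left out, 9 to 15 members were called higher and 0 to 3 lower in the pancreas, and the log2 fold changes in fat ran from −0.315 to 0.042 for Ulk1 and from −0.097 to 0.012 for Sqstm1. For the other changes the cause was not tested. Replicates with one number in Control and OA-AP are not the same mouse and share only that number, and their deviations correlated at 0.00 and −0.04 in the pancreas and −0.01, 0.06 and −0.16 in fat. Between tissues, deviations of same-numbered libraries correlated at −0.0505 and −0.0275 in Control and at −0.00859, 0.0893 and 0.13 in OA-AP mice. With the replicate block, 15 members were called higher and 3 lower in the pancreas, where 17.54% and 14.27% of all tested genes were. In fat that block gave 3 and 0 members, with 11.02% and 10.94% of all tested genes. For the tissue difference it gave 9 and 2 members, with 6.412% and 6.236% of all tested genes. The motif TGACNNNGC was in 5 members (Map1lc3b added) and CACGTG in 4 (Atg14 added) over the whole 300 bases. Optn, with 11 to 47 counts in the pancreas, was the member most limited by depth.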
